A study of Mus musculus with 18 samples.

Results

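The 7 genes described here make the MHC class II pathway of antigen presentation: H2-Aa, H2-Ab1, H2-Eb1, H2-Ea, H2-DMa, Cd74 and Ciita. Every probe set that the array annotation gives to 1 of these symbols alone was taken, which is 17 of 45101 probe sets and 7 of 18194 gene symbols. H2-Aa had 4 of them, H2-Ab1, H2-Ea and Ciita had 3 each, H2-DMa had 2, and H2-Eb1 and Cd74 had 1 each. The genes were chosen by earlier results on the wild type change at 12 h post-injury, in which H2-Aa was among the largest falls, so every comparison that uses wild type uninjured or wild type 12 h arrays is given below as a description with no test. The Sdc4-/- time course and the comparison of genotypes at 48 h do not use those arrays in their means and were tested.

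A class II molecule is a dimer of an alpha and a beta chain that holds peptides from endocytosed proteins on the cell surface for CD4 T cells to read. In the mouse the I-A dimer is made by H2-Aa and H2-Ab1, and the I-E dimer by H2-Ea and H2-Eb1. Cd74, the invariant chain, fills the groove of a new dimer and takes it to the endosome, where H2-DM, of which H2-DMa is the alpha chain, trades the remaining fragment for antigen peptides. Ciita is the coactivator that class II promoters recruit through a shared set of elements, the X box bound by the RFX complex and CREB factors and the Y box bound by NF-Y. In skeletal muscle these genes are known as markers of macrophages, dendritic cells and B cells, which share the tissue with satellite cells, the muscle stem cells.

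The samples were satellite cells sorted by immunoreactivity to syndecan-3 from the tibialis anterior muscle of female mice, given in the labels as 3 to 6 months old. Muscles were uninjured or were taken 12 h or 48 h after injection of 1.2% barium chloride. Wild type mice had the strain C57Bl/6 x DBA2 (B6D2F1/J) and Sdc4-/- mice, which lack syndecan-4, the strain C57Bl/6, so genotype and strain differ together and cannot be told apart. Each of the 6 genotype and time groups had 3 arrays. The study left out 1 wild type uninjured array, taken here as replicate 3, and 17 arrays entered the fit. RNA went through 2 rounds of amplification and came from few cells, with 5000 cell equivalents labelled per array. The sources do not say whether replicates came from separate animals, and a p-value here covers only sample-to-sample spread, which may be technical.

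All values are log2 GCRMA values, where array medians lie between 2.79 and 3.09 and a value near 2.5 to 3 is close to the floor of the scale. The disrupted gene, Sdc4, read 2.41 to 2.60 on all 9 Sdc4-/- arrays with probe set 1417654_at against 5.59 to 7.62 in wild type cells at 48 h, but only 2.36 and 3.57 in wild type uninjured cells. Its other probe set, 1448793_a_at, read 3.39 to 6.53 on Sdc4-/- arrays, and where either lies relative to the deletion was not given in the sources used here. Pax7, the defining satellite cell gene, read 5.15 and 4.59 on the wild type uninjured arrays and at most 2.79 on every other array in the fit with 1444596_at, and its other probe set, 1452510_at, was at the floor on all arrays, wild type uninjured included. The mean of 15 macrophage markers was 8.40 to 9.06 in uninjured Sdc4-/- cells. The arrays were unequal: 2832 to 3982 probe sets exceeded a value of 5 on wild type 12 h arrays, and 5076 to 7864 in the other groups. The hybridization controls ran the opposite way, with means of 13.54 to 14.30 on wild type 12 h arrays and 7.86 to 12.50 elsewhere.

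The class II promoter elements are shown first, for 3 genes that fell in Sdc4-/- cells and hold both of the X and Y box cores. Upstream stretches of 120 bases ending at the gene start were read from RefSeq on GRCm38.p6 for 3 genes on chromosome 17, each on its coding strand and 5' to 3'. Capitals mark the letters searched, CTNGCAAC for the X box core, TGATTGG for the Y box core and TGACGTCA for a palindromic CRE.
H2-Aa, chr17:34287824-34287943, minus strand: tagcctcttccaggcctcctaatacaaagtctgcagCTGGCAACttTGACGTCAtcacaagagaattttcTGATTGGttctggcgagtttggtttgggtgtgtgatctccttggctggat
H2-Eb1, chr17:34305747-34305866, plus strand: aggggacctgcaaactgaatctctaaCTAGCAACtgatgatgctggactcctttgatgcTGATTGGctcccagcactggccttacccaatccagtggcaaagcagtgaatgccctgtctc
H2-Ob, chr17:34238785-34238904, plus strand: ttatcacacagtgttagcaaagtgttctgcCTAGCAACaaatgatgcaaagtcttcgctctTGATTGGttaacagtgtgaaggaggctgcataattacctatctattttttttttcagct
In H2-Aa the X box core began at -84 and the Y box core at -50 from the gene start, with the CRE at -74 directly behind the X box. H2-Eb1 carried the X box core at -94 and the Y box core at -61, and H2-Ob, the beta chain of the H2-DM modulator H2-O, carried them at -90 and -59. The starts of the boxes were 34, 33 and 31 bases apart. Searched on both strands over the 250 bases before each start, the X box core was in 2.84% of 32851 promoters, the Y box core in 7.23%, the CRE in 1.55%, and the X and Y cores together in 0.244%, which is 80 promoters. H2-Eb2 held both cores too, in the reverse order, with the X box core at -12 and the Y box core at -102. It was at the floor on every array, where a fall could not be seen. Whether holding both cores sets apart the genes that fell can therefore not be decided from it. H2-Oa, H2-DMb1 and H2-DMb2 held the Y box core alone. H2-DMa held none of the 3 motifs in the 120 bases before either of its annotated starts. It was called lower in Sdc4-/- cells at 12 h and 48 h all the same, so not every gene that fell held the cores there. The sequences used here held none for H2-Ab1, H2-Ea or Ciita, and Cd74 was not searched, so nothing is said of their promoters. A match describes letters and is no evidence of binding.

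In Sdc4-/- cells 5 of the 7 class II genes fell after injury, both chains of I-A, the I-E beta chain, H2-DMa and the invariant chain. At 12 h, 8 of the 17 probe sets were called lower than in uninjured cells and 0 were called higher, against 5.15% of all probe sets called lower and 1.26% called higher, with limma at an adjusted p under 0.05. The 8 belonged to H2-Aa, H2-Ab1, H2-Eb1, H2-DMa and Cd74. The 12 h count was 2 with only the compared groups in the fit, where H2-Ab1 1451721_a_at and H2-DMa 1422527_at kept their calls and H2-Eb1 and Cd74 lost theirs, 5 after quantile normalization, and 5 without uninjured replicate 1, uninjured replicate 2 or 12 h replicate 1. At 48 h, 11 of 17 were called lower and 0 higher, against 2.31% of all probe sets called lower and 2.18% called higher, and these were all 11 probe sets of the same 5 genes. The median difference over the 17 probe sets was -2.45 at 12 h and -3.89 at 48 h on the log2 scale, where the medians of all probe sets were 0.05 and 0.02. The 6 remaining probe sets belonged to H2-Ea and Ciita.

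**Figure D1:**
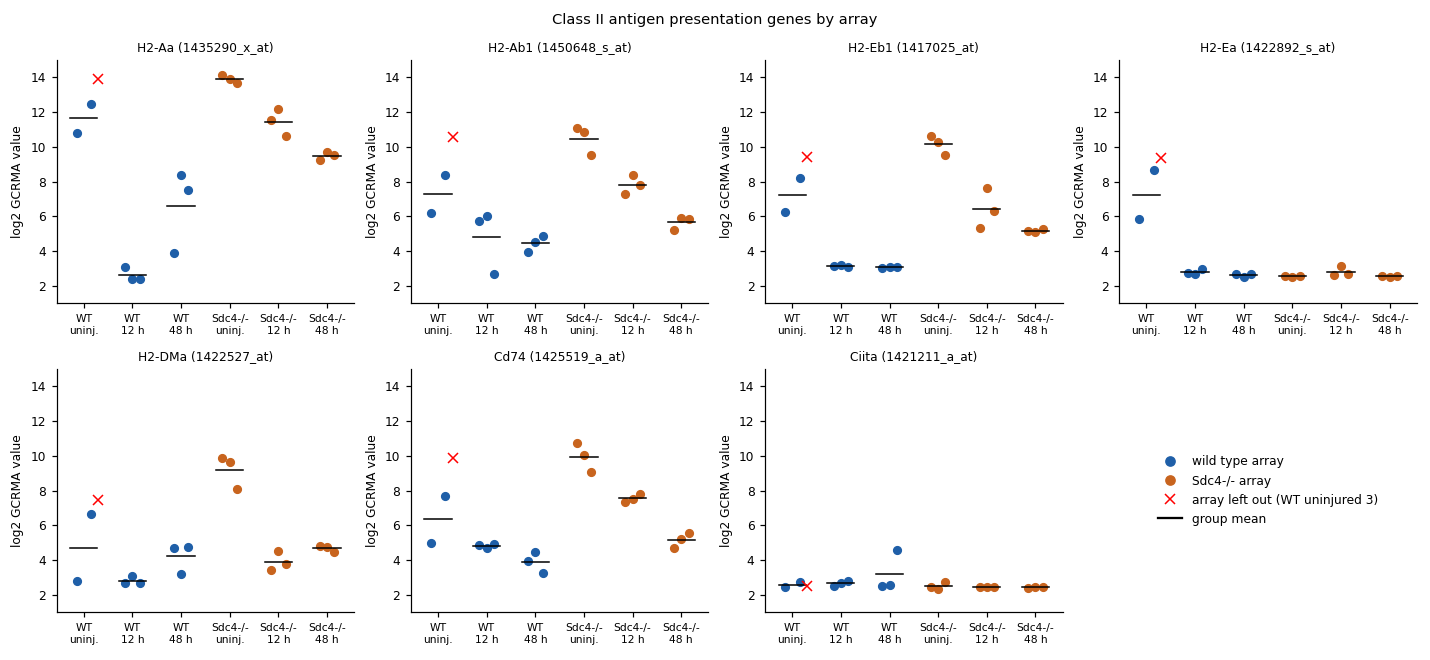
Log2 GCRMA value (vertical axis, same range in every panel) of 1 probe set for each of the 7 genes on every array, by genotype and time. Points are arrays, lines are group means and red crosses are the wild type uninjured array left out of the fit. H2-Aa, H2-Ab1, H2-Eb1, H2-DMa and Cd74 stand highest in uninjured Sdc4-/- cells, while H2-Ea stands above the floor in wild type uninjured cells alone and Ciita lies near the floor in all groups.

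H2-Aa, the I-A alpha chain, read 14.10, 13.91 and 13.65 with probe set 1435290_x_at in uninjured Sdc4-/- cells, 11.56, 12.16 and 10.59 at 12 h, and 9.22, 9.71 and 9.54 at 48 h. The 3 times did not overlap and the order was the same with 1438858_x_at, at 13.42 to 14.13, then 10.40 to 12.13, then 8.40 to 8.84. The 12 h difference of -2.45 (SE 0.90) had an adjusted p of 0.144 by limma and was not called, and the 48 h difference of -4.40 (SE 0.90), a 21.1-fold lower signal, was called at an adjusted p of 0.0137. The probe sets 1443783_x_at and 1452431_s_at were called at both times, with 12 h differences of -3.71 and -4.31 (limma adjusted p 0.0323 and 0.00385) and 48 h differences of -6.36 and -5.36 (adjusted p 0.00184 and 0.00118). With 1443783_x_at the 12 h arrays were far apart, at 5.79, 8.13 and 3.40, and the 48 h arrays were at 2.78, 2.98 and 3.60. Without 12 h replicate 3 its 12 h difference was -2.52, and it lost its call without that array, 12 h replicate 1, or uninjured replicate 1 or 2. The 4 H2-Aa probe sets gave the same direction and different sizes.

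H2-Ab1, the I-A beta chain and the partner of H2-Aa, read 11.05, 10.82 and 9.54 with 1450648_s_at in uninjured Sdc4-/- cells. It read 7.28, 8.35 and 7.83 at 12 h and 5.21, 5.89 and 5.84 at 48 h, again with no overlap between times. The 48 h difference was -4.83 (SE 0.80, 28.4-fold lower, limma adjusted p 0.00412), and the 12 h difference of -2.65 (SE 0.80) missed the threshold at an adjusted p of 0.074. The other probe sets, 1425477_x_at and 1451721_a_at, were called at 12 h with -2.42 and -2.80 (limma adjusted p 0.0212 and 0.00525) and at 48 h with -2.84 and -3.20 (adjusted p 0.0111 and 0.00288). Both were at 3.20 to 4.35 on the 12 h arrays, close to the floor. The 12 h call of 1425477_x_at was lost without uninjured replicate 1 or 2 or without 12 h replicate 1 or 2, where the difference was -2.02 to -2.35.

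H2-Eb1, the I-E beta chain, read 10.62, 10.29 and 9.53 in uninjured Sdc4-/- cells, 5.34, 7.65 and 6.29 at 12 h, and 5.18, 5.09 and 5.26 at 48 h. Injured and uninjured arrays did not overlap, and the 48 h arrays lay close together. The difference was -3.72 (SE 0.54, 13.2-fold lower) at 12 h and -4.98 (SE 0.54, 31.5-fold lower) at 48 h, with limma adjusted p of 0.00141 and 2.13e-04. Its alpha chain partner H2-Ea did not share this course. H2-Ea read 2.59, 2.50 and 2.60 with 1422892_s_at in uninjured Sdc4-/- cells, 2.65, 3.15 and 2.67 at 12 h and 2.59, 2.51 and 2.59 at 48 h, all near the floor.

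Cd74, the invariant chain, read 10.74, 10.06 and 9.04 in uninjured Sdc4-/- cells, 7.35, 7.52 and 7.81 at 12 h, and 4.72, 5.19 and 5.58 at 48 h. The 3 times were apart from each other. Cd74 fell by 2.39 (SE 0.59, 5.24-fold) at 12 h and by 4.78 (SE 0.59, 27.6-fold) at 48 h on the log2 scale, with limma adjusted p of 0.0304 and 5.62e-04. The 12 h call was lost when any 1 of the 6 arrays compared was left out, other than uninjured replicate 3.

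H2-DMa, the peptide exchange subunit, was about as low at 12 h as at 48 h. With 1422527_at it read 9.86, 9.62 and 8.08 in uninjured Sdc4-/- cells, 3.45, 4.54 and 3.75 at 12 h, and 4.81, 4.77 and 4.49 at 48 h. The 12 h and 48 h arrays overlapped. The differences from uninjured were -5.27 (SE 0.80, 38.7-fold lower) and -4.50 (SE 0.80, 22.5-fold lower), with limma adjusted p of 0.00192 and 0.00631, and 1459872_x_at gave -3.86 and -3.89 (adjusted p 0.00205 and 0.00249) with both injured groups at the floor. Between 12 h and 48 h, H2-DMa differed by 0.78 (SE 0.80, limma adjusted p 0.725).

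Ciita, the coactivator, was near the floor throughout. Its 3 probe sets ranged from 2.29 to 4.58 over the 17 arrays, and each exceeded the array median on 1 array alone. The highest value was 4.58 with 1421211_a_at in wild type cells at 48 h, replicate 3, where the other 48 h arrays read 2.51 and 2.59. At this signal a difference in Ciita was not detectable, and 0 of its probe sets were called in the 4 tested comparisons.

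**Figure D2:**
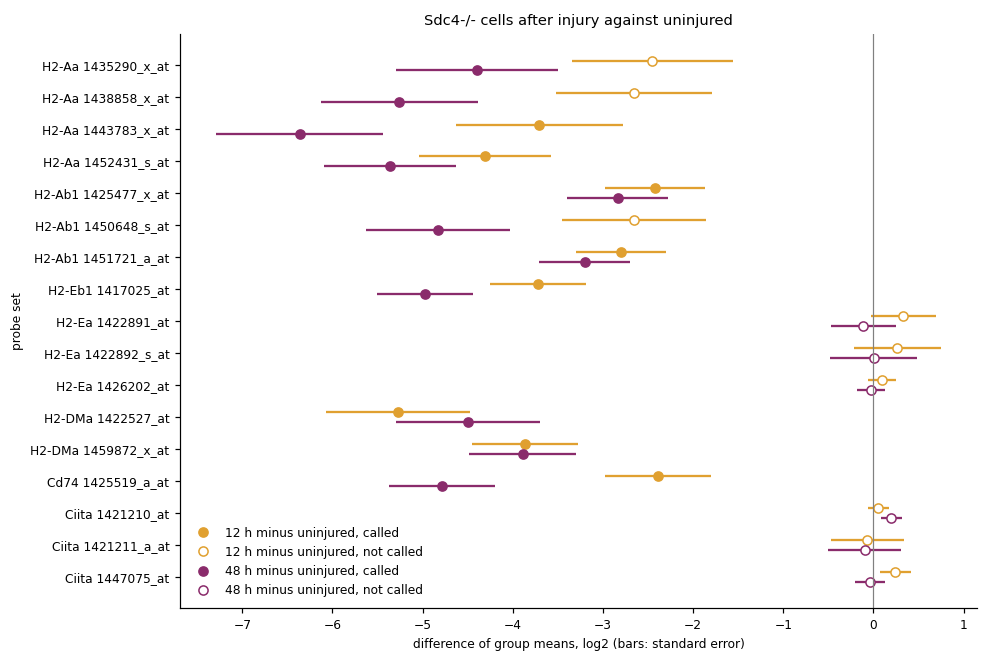
Difference of group means (horizontal axis, log2) for the 17 probe sets in Sdc4-/- cells at 12 h and at 48 h against uninjured, with standard errors from the fit as bars. Filled points are called at an adjusted p under 0.05. The 11 probe sets of H2-Aa, H2-Ab1, H2-Eb1, H2-DMa and Cd74 lie between -2.39 and -6.36, and those of H2-Ea and Ciita lie close to 0.

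From 12 h to 48 h in Sdc4-/- cells, Cd74 was the only 1 of the 17 probe sets called lower, against 0.703% of all probe sets called lower, and 0 were called higher, against 5.28%. Its difference was -2.40 (SE 0.59, limma adjusted p 0.0318), and the call was lost when any 1 of the 6 arrays was left out. H2-Aa with 1435290_x_at differed by -1.94 (SE 0.90, adjusted p 0.287), H2-Ab1 with 1450648_s_at by -2.17 (SE 0.80, adjusted p 0.157) and H2-Eb1 by -1.25 (SE 0.54, adjusted p 0.241). At an unadjusted p under 0.05, 5 probe sets were lower and 0 were higher. The share of all probe sets at that threshold was not counted, so no excess is read from this. The comparisons with uninjured share the uninjured arrays, so the calls at 12 h and 48 h are not independent of each other.

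In wild type cells the values chose the genes, and they are described here with no test. H2-Aa with 1435290_x_at read 10.79 and 12.47 in uninjured cells, 3.10, 2.40 and 2.38 at 12 h, and 3.87, 8.36 and 7.54 at 48 h. It was at the floor on all 12 h arrays and above it again at 48 h, with replicate 1 the lowest by far. Against uninjured cells the mean was 5.04 lower at 48 h (SE 1.00) on the log2 scale, and no fold is given for 12 h, where the values lie at background. H2-Aa with 1443783_x_at read 5.89 and 8.35 in uninjured cells and stayed at 2.48 to 3.07 at both later times, so the return at 48 h was seen with 2 of its 4 probe sets.

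Cd74 read 4.99 and 7.70 in wild type uninjured cells, 4.90, 4.67 and 4.91 at 12 h, and 3.93, 4.45 and 3.29 at 48 h. H2-Eb1 read 6.23 and 8.18, then 3.09 to 3.17 at 12 h and 3.05 to 3.07 at 48 h, and H2-Ab1 with 1450648_s_at read 6.21 and 8.36, then 5.71, 6.00 and 2.70 at 12 h and 3.95, 4.50 and 4.89 at 48 h. H2-DMa with 1422527_at read 2.79 and 6.65 in uninjured cells, 2.69 to 3.09 at 12 h and 3.21 to 4.77 at 48 h. In each of these genes replicate 1 was the lower of the uninjured arrays, and for H2-DMa it was already at the floor. Of the 17 probe sets, 12 were at least 2-fold lower at 12 h, where 17.4% of all probe sets were, and 10 at 48 h, where 11.3% were. The medians over the 17 were -1.52 at 12 h and -1.29 at 48 h, beside 0.15 and 0.11 over all probe sets. Without uninjured replicate 1 the medians were -2.87 and -2.63, and without replicate 2 they were -0.16 and -0.39. With the hybridization controls as a covariate they were -0.043 and -0.35, and the part of that technical level in these values was not tested further.

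**Figure D3:**
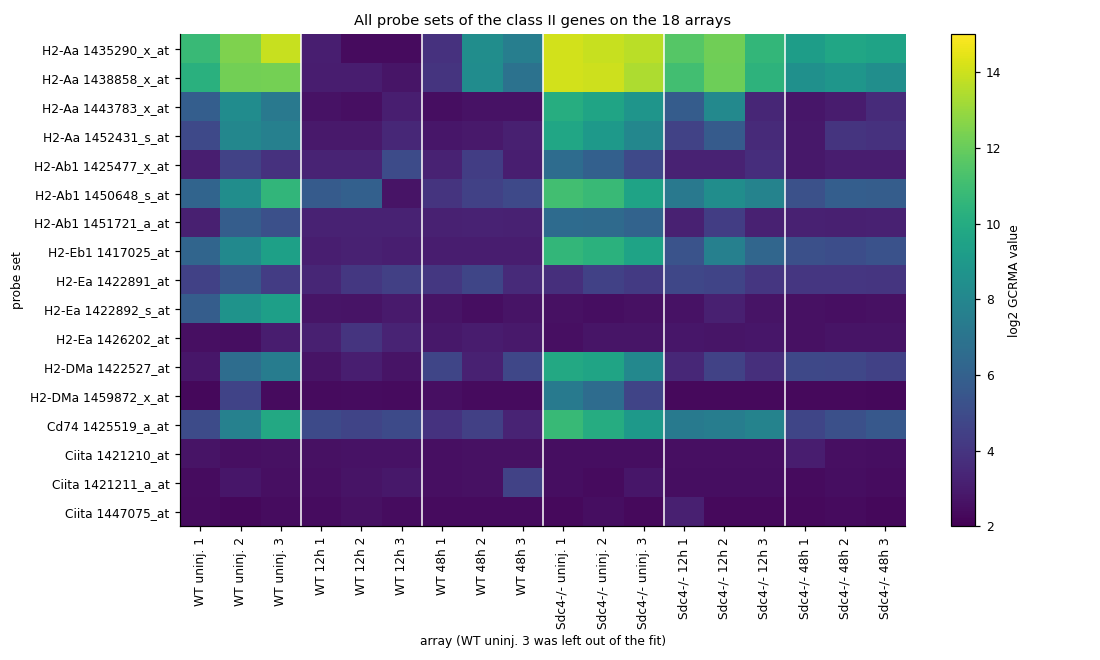
Log2 GCRMA value (colour) of all 17 probe sets (rows) on the 18 arrays (columns), with white lines between groups. The uninjured Sdc4-/- columns are bright for the 11 probe sets of 5 genes, the wild type 12 h columns are mostly dark, and H2-Ea with 1422892_s_at is bright on the wild type uninjured columns alone.

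Uninjured Sdc4-/- cells stood above wild type uninjured cells in all class II genes other than H2-Ea and Ciita. H2-Aa with 1435290_x_at was at 13.65 to 14.10 against 10.79 and 12.47, Cd74 at 9.04 to 10.74 against 4.99 and 7.70, and H2-DMa with 1422527_at at 8.08 to 9.86 against 2.79 and 6.65. The arrays of the genotypes did not overlap for any of the 11 probe sets of the 5 genes. There were only 2 wild type arrays, and the share of all probe sets without overlap was not counted, so this is a description. The strains carry different class II alleles, which may bind the probes differently, so allele, strain and genotype cannot be told apart in any of these differences, those at 48 h included. Leaving aside H2-Ea, whose expression is known to differ between the alleles, 11 of 14 probe sets were at least 2-fold higher in Sdc4-/- cells, where 5.6% of all probe sets were. The median difference was 2.43, beside 0.03 over all probe sets, and it was 1.34 without wild type uninjured replicate 1 and 3.60 without replicate 2. At 12 h, 8 of 14 were at least 2-fold higher, where 9.9% of all probe sets were, with a median of 1.31 that became -0.062 with the hybridization controls as a covariate. H2-Aa with 1435290_x_at was at 10.59 to 12.16 there against 2.38 to 3.10 in wild type cells, which is the floor. The wild type uninjured array left out of the fit read 13.90 with this H2-Aa probe set and 9.86 for Cd74, within the uninjured Sdc4-/- range. H2-Ab1 with 1450648_s_at was within that range too, at 10.54. The other probe sets of the 5 genes read below it on that array, such as H2-Eb1 at 9.41 against 9.53 to 10.62. With the left-out array in the fit the uninjured median difference was 2.09.

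At 48 h the genotypes were compared with a test. H2-Eb1 was the only 1 of the 14 probe sets called higher in Sdc4-/- cells, against 3.61% of all probe sets called higher, and 0 were called lower, against 1.46%. It read 5.18, 5.09 and 5.26 against 3.05, 3.06 and 3.07 in wild type cells, a difference of 2.11 (SE 0.54, limma adjusted p 0.0424). The wild type values are the lowest this probe set took, at its floor, so no fold is given. The call was lost when any 1 of the 6 arrays was left out. H2-Aa with 1435290_x_at differed by 2.90 (SE 0.90, limma adjusted p 0.0874), Cd74 by 1.27 (SE 0.59, adjusted p 0.263) and H2-Ab1 with 1450648_s_at by 1.20 (SE 0.80, adjusted p 0.449). Those 3 were higher on every Sdc4-/- array than on every wild type array without passing the test. The other H2-Ab1 probe sets ran the other way near the floor, 1425477_x_at with -0.59 and 1451721_a_at with -0.04 (adjusted p 0.616 and 0.973). Separation of the arrays went both ways, with 6 of the 14 probe sets higher without overlap and 4 lower without overlap. The 4 were these H2-Ab1 probe sets and a probe set each of H2-DMa and Ciita. The share of all probe sets without overlap was not counted, so no excess is read from the separation. At an unadjusted p under 0.05, 3 of 14 probe sets were higher and 0 lower. Here too the share of all probe sets at that threshold was not counted, so no excess is read from the 3.

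H2-Ea, the I-E alpha chain, stood above the floor in wild type uninjured cells alone. With 1422892_s_at it read 5.84 and 8.65 in wild type uninjured cells and 2.73, 2.69 and 2.96 at 12 h and 2.67, 2.50 and 2.68 at 48 h, while all 9 Sdc4-/- arrays read 2.50 to 3.15. The allele of C57BL/6 mice is known to carry a deletion that spans its promoter, the DBA/2 allele is intact, and RefSeq gives H2-Ea of the C57BL/6J genome the biotype transcribed pseudogene, on chromosome 17 from 34341952 to 34344645 of GRCm38.p6. In uninjured Sdc4-/- cells its partner chain H2-Eb1 was nevertheless at 9.53 to 10.62. The probe sets 1422891_at and 1426202_at did not show the same pattern, at 3.39 to 5.50 and at 2.50 to 3.95 over all 17 arrays, and 1426202_at was 0.95 (SE 0.17) higher in wild type cells at 12 h than uninjured.

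The class II level of an array, the mean log2 value of H2-Aa, H2-Ab1, H2-Eb1 and Cd74, each by its probe set of highest mean, orders the groups. Uninjured Sdc4-/- cells were highest with 11.11 ± 0.61 (SD, n = 3). Next came Sdc4-/- cells at 12 h with 8.31 ± 0.54 (SD, n = 3) and wild type uninjured cells with 7.05 and 9.18 on their 2 arrays. Sdc4-/- cells at 48 h had 6.37 ± 0.25 (SD, n = 3). Wild type cells at 48 h had 4.50 ± 0.72 (SD, n = 3), and the lowest level was in wild type cells at 12 h, 3.85 ± 0.51 (SD, n = 3). Wild type uninjured and Sdc4-/- 12 h cells overlapped, as did wild type 12 h and 48 h cells, and the other neighbours in this order did not.

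As a mean, the markers of macrophages did not follow the same course. Their mean log2 level over 15 measured genes was 8.40 to 9.06 in uninjured Sdc4-/- cells, 6.78 to 8.11 at 12 h and 9.01 to 9.09 at 48 h. At 12 h both levels were lower, and at 48 h the macrophage level was within or above its uninjured range while the class II level was at 6.08 to 6.55 against 10.44 to 11.63. In wild type cells the macrophage level was 5.05 and 7.77 uninjured, 3.88 to 4.15 at 12 h and 8.76 to 8.91 at 48 h, where the class II level was 3.70 to 5.09. The array with the lower class II level among the wild type uninjured pair also had the lower macrophage level. In Sdc4-/- cells 2 of 15 macrophage markers were called lower at 12 h, the complement genes C1qa and C1qc, beside 5.15% of all probe sets. The list's median difference was -1.48. At 48 h, 2 were called higher than in uninjured cells, beside 2.18% of all probe sets. These were the Fc receptor gene Fcgr1 by 3.72 and the chemokine receptor gene Ccr2 by 2.61, with limma adjusted p of 0.00324 and 0.0123. The list was split there, with a median difference of 0.09. C1qa, C1qb, C1qc, Cd163 and Csf1r differed by -1.40, -1.71, -1.90, -1.65 and -1.28 without being called. Cd68 and Cd14 differed by 1.64 and 1.17, also not called. From 12 h to 48 h, 4 rose, Adgre1, Cd68, Fcgr1 and Ccr2, beside 5.28% of all probe sets called higher. The part of a change in macrophages in the class II values was not tested, and in sorted bulk cells fewer cells of a type and less RNA per cell cannot be told apart.

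**Figure D4:**
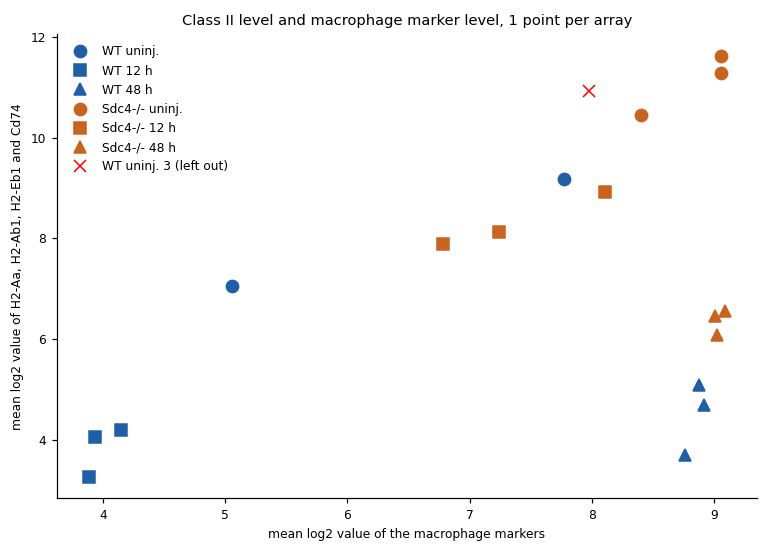
Mean log2 value of H2-Aa, H2-Ab1, H2-Eb1 and Cd74 (vertical axis) against the mean log2 value of 15 macrophage markers (horizontal axis), 1 point per array, by genotype (colour) and time (shape). The 48 h arrays of both genotypes sit at the right, at macrophage levels of 8.76 to 9.09, with class II levels of 3.70 to 6.55. Uninjured Sdc4-/- arrays reach 10.44 to 11.63 at macrophage levels of 8.40 to 9.06.

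Of 10 dendritic cell markers measured, 3 were called lower in Sdc4-/- cells at 12 h and 2 at 48 h, beside 5.15% and 2.31% of all probe sets, and the median differences were -0.26 and -0.07. Batf3, a transcription factor of cross-presenting dendritic cells, fell by 2.49 and 2.53 at the 2 times (limma adjusted p 0.00587 and 0.00669), from 4.18 to 6.19 in uninjured cells to at most 2.55 after injury. Siglech, a receptor of plasmacytoid dendritic cells, fell by 1.73 and 2.01 (adjusted p 0.049 and 0.0294). Irf8 fell by 2.38 at 12 h (adjusted p 0.0252) and rose by 2.60 from 12 h to 48 h (adjusted p 0.017). Itgax, the integrin chain CD11c, read 4.78, 3.06 and 2.72 in uninjured cells and 7.28, 3.64 and 5.11 at 12 h, a difference of 1.82 that was not called. Clec10a had the highest values of the list, with 10.63, 11.23 and 10.51 in uninjured Sdc4-/- cells. It read 5.96, 7.23 and 9.05 at 12 h and 6.52, 6.30 and 7.31 at 48 h. Its differences of -3.38 and -4.08 were not called (limma adjusted p 0.0942 and 0.0558). Flt3, Xcr1 and Cd209a were above the 75th percentile on none of the 17 arrays. The list's mean level was 4.11 to 4.52 in uninjured Sdc4-/- cells and 2.91 to 3.93 in the other groups. The mean levels of 8 B cell markers and of 9 T and NK cell markers lay between 2.72 and 3.55. In the 4 tested comparisons 0 genes of either list were called. Of the B cell markers 3, and of the T and NK cell markers 5, were above the 75th percentile on none of the 17 arrays. Ighm was above it on 14 arrays, Cd4 on 10 and Cd8a on 9. Other lists moved as well: Kdr and Tek, of 8 endothelial markers, fell at 12 h, Kdr fell at 48 h, and Dcn and Dpt, of 7 fibroblast markers, fell at 48 h. S100a9, of 5 neutrophil markers, fell from 12 h to 48 h, beside 0.703% of all probe sets called lower there. Of 6 pan-leukocyte markers 0 were called in the 4 comparisons. Of 12 satellite cell markers, 0 were called in the Sdc4-/- time course and Sdc4 itself was lower than in wild type cells at 48 h. The part of these cells in the class II values was not tested.

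Most other genes of the class II pathway were not called in Sdc4-/- cells after injury. Of 13 measured genes, 1 was called lower and 0 higher at 12 h, and 1 lower and 2 higher at 48 h, beside the 5.15% and 2.31% of all probe sets called lower and the 2.18% called higher at 48 h, with median differences of -0.37 and -0.07. H2-Ob, the beta chain of H2-O, which restrains H2-DM, read 6.02, 5.44 and 5.77 in uninjured cells, 3.70, 3.69 and 2.64 at 12 h, and 2.64, 2.57 and 2.48 at 48 h. It fell by 2.40 (SE 0.27) and 3.18 (SE 0.27) at the 2 times, with limma adjusted p of 2.92e-04 and 4.4e-05. Ctsl and Lgmn, named after their values were seen, encode cathepsin L and legumain, endosomal proteases that cut antigens and the invariant chain. They were higher at 48 h by 3.63 (SE 0.81, limma adjusted p 0.022) and 2.96 (SE 0.63, adjusted p 0.018). Ctsl read 9.51 to 10.04 in uninjured cells and 13.37 to 13.52 at 48 h, and Lgmn 5.32 to 6.68 and 8.62 to 9.13. Lgmn and Ifi30, the thiol reductase of antigen processing, rose from 12 h to 48 h by 4.10 and 2.32 (adjusted p 0.00242 and 0.0155). Ctss, the cathepsin that ends invariant chain processing, was at 12.37 to 14.16 on all 9 Sdc4-/- arrays. Cd40, a costimulatory receptor, was the 1 gene of this list called between genotypes at 48 h, beside 1.46% of all probe sets called lower. Sdc4-/- minus wild type was -1.94 (SE 0.46, limma adjusted p 0.0309).

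**Figure D5:**
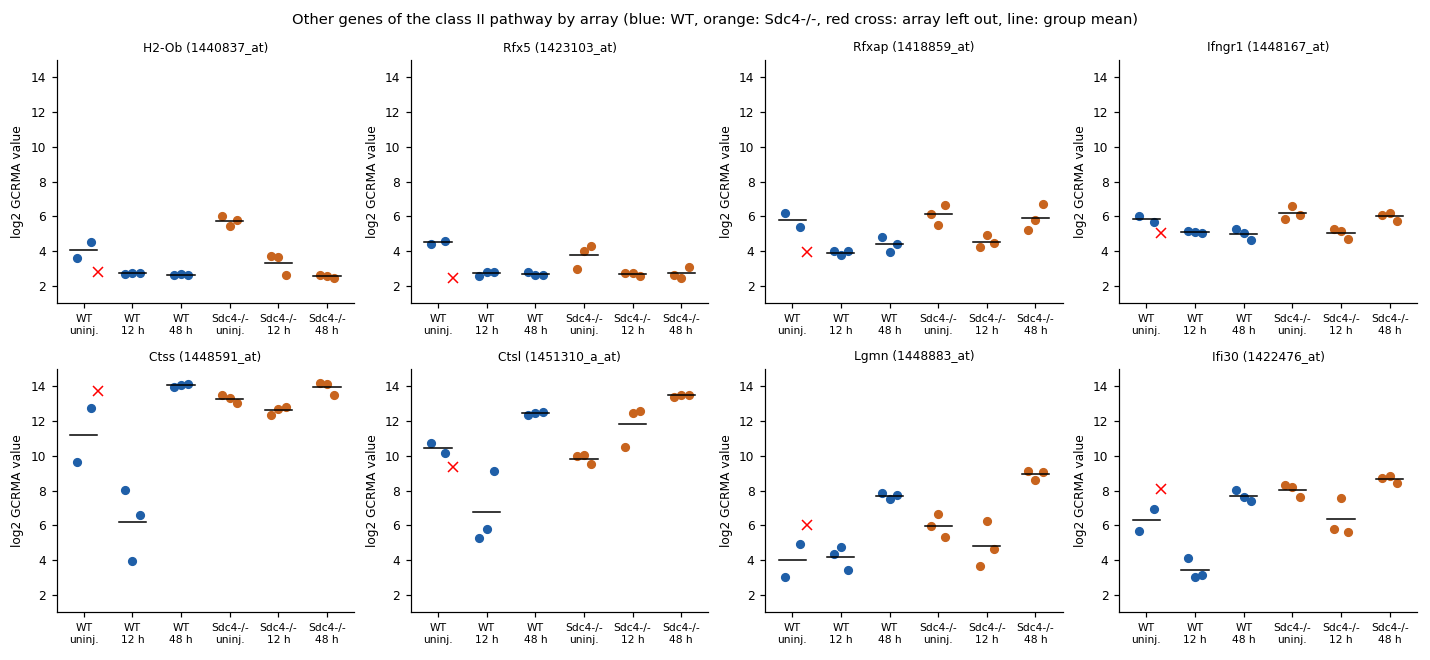
Log2 GCRMA value (vertical axis, same range in every panel) of 8 further genes of the pathway on every array, by genotype and time. Points are arrays, lines are group means and red crosses are the array left out. H2-Ob runs from 5.44 to 6.02 in uninjured Sdc4-/- cells to 2.48 to 2.64 at 48 h, while Ctsl and Lgmn are highest at 48 h.

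Of 7 factors that bind class II promoters, 2 were called lower in Sdc4-/- cells at 12 h, beside 5.15% of all probe sets. The median difference was -0.19. Both, Rfx5 and Rfxap, belong to the RFX complex that binds the X box. Rfxank, of the same complex, differed by -0.19 and was not called (limma adjusted p 0.749). Rfx5 read 2.98, 3.99 and 4.32 in uninjured cells and 2.75, 2.74 and 2.55 at 12 h, a fall of 1.08 (SE 0.27, limma adjusted p 0.031). Rfxap read 6.14, 5.50 and 6.67, then 4.24, 4.93 and 4.47, a fall of 1.55 (SE 0.39, adjusted p 0.0331). At 48 h Rfx5 was still lower by 1.03 (adjusted p 0.0497), and Rfxap was back at 5.20 to 6.68. Between genotypes at 48 h, Rfxap was 1.51 higher in Sdc4-/- cells and Rfxank differed by -1.07 (adjusted p 0.0458 and 0.0486). The NF-Y genes Nfya, Nfyb and Nfyc and the CREB gene Creb1 were not called in any of the 4 comparisons.

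Interferon-gamma is a known inducer of Ciita outside antigen presenting cells. Ifng was at most 3.11 on all 17 arrays and above the 75th percentile on none. Of 11 measured genes of its pathway, only Ifngr1 was called at 12 h in Sdc4-/- cells, beside 5.15% of all probe sets called lower. It fell by 1.14 (SE 0.22, limma adjusted p 0.00885) and rose by 0.97 from 12 h to 48 h (adjusted p 0.0233). At 48 h against uninjured 0 were called, and the medians were -0.52 at 12 h and 0.19 at 48 h. Between genotypes at 48 h, 3 were called higher in Sdc4-/- cells, beside 3.61% of all probe sets. These were Jak1 by 3.26, Irgm1 by 1.70 and Ifngr1 by 1.00 (limma adjusted p 0.00422, 0.0116 and 0.024). The class I pathway, which presents cytosolic peptides to CD8 T cells, had 2 of 15 genes called lower at 12 h, beside the 5.15%. These were H2-M3 with -2.55 and Psmb10 with -1.65 (limma adjusted p 0.0379 and 0.00603). At 48 h the class I list had 0 called lower and 1 called higher than uninjured, beside 2.31% and 2.18% of all probe sets. The 1 was the folding enzyme Pdia3, higher by 2.44 (limma adjusted p 8.36e-04). The median difference went from -0.75 at 12 h to 0.55 at 48 h. From 12 h to 48 h, 4 rose, Tap1, Psmb10, Calr and Pdia3, beside 5.28% of all probe sets called higher. Between genotypes at 48 h, Tap1 and Pdia3 were called higher in Sdc4-/- cells, beside the 3.61% of all probe sets. The mean level of the class I list in Sdc4-/- cells was 6.57 to 7.18 uninjured, 5.65 to 6.20 at 12 h and 7.32 to 7.47 at 48 h, the last being above the uninjured range where the class II level was below it.

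The values of 8727 probe sets with 1 symbol and a mean of at least 4 were compared with the class II level over the 17 arrays. Each symbol was taken by its most alike probe set. The 10 most alike symbols were Retnla, Sema4a, Gas7, Nsmf, Ppp1r15a, Ap2a2, Fcna, Tlcd2, Cebpd and Mgl2, with Pearson's r from 0.97 to 0.86. The arrays fall into 6 groups and share their normalization, so r is a description. Retnla, a secreted resistin-like protein, read 12.84, 12.93 and 12.38 in uninjured Sdc4-/- cells, 9.48, 11.07 and 9.53 at 12 h and 6.30, 6.25 and 5.43 at 48 h. In wild type cells it read 8.08 and 11.10 uninjured and 4.51 to 5.14 at the later times. Over the 9 Sdc4-/- arrays alone, 3 of the 10 were again among the 10 most alike, Retnla, Fcna and Gas7, and over all 18 arrays 7 were.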

How the data were processed

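Satellite cell RNA was hybridized to Affymetrix mouse genome arrays. The authors read intensities with GCOS and normalized them by GCRMA in Spotfire DecisionSite, and the deposited values are on the log2 scale, not centred, with no detection calls; versions are not given in the sources used here. A probe set was named by the platform annotation where it lists 1 symbol (34958 of 45101 probe sets; 932 list several and 9211 none). Of the 17 probe sets, 5 end in _x_at and 3 in _s_at, endings that mark probes able to match related transcripts. A linear model with 1 mean for each of the 6 groups was fitted to the values as deposited on 17 arrays by lmFit and eBayes of limma 3.58.1 (R 4.3.3), leaving 11 residual df, with Benjamini-Hochberg adjustment over all 45101 probe sets and calls at an adjusted p under 0.05. Each gene of the other lists was read by its probe set of highest mean. Genes were named by rule: all 7 class II genes, up to 4 called genes of each pathway list, cell type markers that moved beside a result, and the 10 most alike genes; others are said to have been named after their values were seen, as were Jak1, Irgm1, Tap1, Calr, Pdia3, Rfxank, Cd40 and Ifi30. The members and lists were chosen with earlier results of these data known. The fit was tested on simulated data of the 12 h Sdc4-/- comparison (45101 probe sets): it called 85 of 100 probe sets lowered by 3 log2 units, 35 of 100 lowered by 1, and 5 that were left as they were. The number of arrays limits the precision. The scan headers put uninjured arrays of the genotypes on different days, which cannot be told apart from genotype there. Same-numbered replicates did not deviate together (correlations of -0.08 to 0.12), so numbers were not taken as pairs.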

Additional observations from a re-analysis of the deposited data

Results flagged for a closer look

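In the class II genes, 3 probe sets had arrays of the compared times that did not overlap in either genotype, with opposite directions. They came from a search of all 17 probe sets over 3 pairs of times, and the share of all probe sets was not counted. Arrays are not paired, and each case uses the wild type 12 h arrays, whose values chose the genes. The difference between genotypes was not tested. From 12 h to 48 h, H2-Aa with 1435290_x_at was 3.96 higher in wild type cells and differed by -1.94 in Sdc4-/- cells, and with 1438858_x_at the values were 3.45 and -2.60. At 12 h against uninjured, H2-Ea with 1422892_s_at differed by -4.45 in wild type cells and by 0.26 in Sdc4-/- cells, where all arrays were near the floor.

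The wild type uninjured array left out of the fit, replicate 3, read above the other wild type uninjured arrays with at least 1 probe set in each of 6 genes. H2-Aa with 1435290_x_at was at 13.90 on it, against at most 12.47 on the others, and H2-Ab1 with 1450648_s_at was at 10.54 against 8.36. H2-Eb1 was at 9.41 against 8.18, Cd74 at 9.86 against 7.70, H2-DMa with 1422527_at at 7.46 against 6.65, and H2-Ea with 1422892_s_at at 9.36 against 8.65. H2-Aa with 1438858_x_at was higher on it by little, at 12.30 against at most 12.25. Near the floor, H2-Ea with 1426202_at was at 3.02 against at most 2.53, and Ciita with 1447075_at at 2.41 against at most 2.38. The remaining probe sets did not show this. H2-Aa with 1443783_x_at and 1452431_s_at was at 7.24 and 7.66 on it, below the 8.35 and 7.99 of replicate 2. H2-Ab1 with 1425477_x_at and 1451721_a_at was at 3.84 and 5.19, below 4.55 and 5.85, and H2-DMa with 1459872_x_at was at 2.38, below 4.61. H2-Ea with 1422891_at was at 4.30, below both others.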

How the results depend on the processing

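In Sdc4-/- cells at 12 h, 8 probe sets were called, 2 with the compared groups alone, 5 after quantile normalization and 13 after a shift to a common 75th percentile, which moved the median of all probe sets by 0.34. Leaving out 1 array gave 5 to 8. The 3 calls lost most often were those of Cd74, H2-Aa 1443783_x_at and H2-Ab1 1425477_x_at, which went together without uninjured replicate 1, without uninjured replicate 2 or without 12 h replicate 1. At 48 h the 11 calls became 8 to 11 under every alternative and stayed 11 when any 1 array was left out. The single call between 12 h and 48 h became 0 with all 18 arrays, 2 with the compared groups alone, and 4 with array weights, with the 75th percentile shift or with the filter on dim probe sets (mean log2 value under 4 left out), and 0 to 1 without 1 array. The single call between genotypes at 48 h became 0 with all 18 arrays, after quantile normalization or with the hybridization covariate, 2 with array weights, with the 75th percentile shift or with the filter, and 0 to 1 without 1 array. The shift moved the median of all probe sets there by -0.22. Over all probe sets, 2323 were called lower and 567 higher at 12 h in Sdc4-/- cells, 1293 and 708 after quantile normalization and 2659 and 18071 after the shift. At 48 h they were 1043 and 983, then 689 and 515, then 886 and 1493. Between 12 h and 48 h they were 317 and 2381, then 321 and 763, then 7943 and 2827. Between genotypes at 48 h they were 657 and 1629, then 204 and 585, then 11883 and 2270. The wild type median at 12 h of -1.52 became -2.69 with all 18 arrays, -3.35 with the filter, -0.043 with the hybridization covariate and -2.87 to -0.16 without 1 array. At 48 h its -1.29 became -3.49 with the filter, -0.35 with the covariate and -2.63 to -0.39 without 1 array. The uninjured genotype median of 2.43 ranged from 1.34 to 3.60 without 1 array. The 12 h genotype median of 1.31 became 3.02 with the filter, -0.062 with the covariate and 0.88 to 1.61 without 1 array. The filter kept 9 of the 17 probe sets and 8 of the 14. With the replicate number as a block the counts were 8, 11, 1 and 1, the same probe sets as without it. The cause of these shifts was not tested, beyond the fewer probe sets of the filter and the fewer arrays of the smaller fits. Of single called probe sets, 286 values kept their call over the alternatives, 44 lost it and 0 reversed.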
